A study of Mus musculus with 15 samples.

Results

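The Bcl2 family controls the death of cells through their mitochondria, and 8 of its genes were measured in murine A20 lymphoma cells: *Bcl2, Bcl2l1, Bcl2l2, Mcl1, Bcl2l11, Bax, Bak1* and *Bad*. These 8 genes were taken from a list of names and found by their symbol among 41388 genes counted in each library, and all 8 were among the 13904 genes that passed a filter on low counts, *Bcl2l2* only narrowly. A20 cells came from a B-cell lymphoma of a BALB/c mouse, and the study asked what the loss of the transcription factor Foxp1 does to it. RNA was sequenced from parental A20 cells, which carry wild-type *Foxp1*, and from 4 CRISPR/Cas9 lines made from them, E6.1 and E6.2 with *Foxp1* cut in exon 6 and E7.1 and E7.2 with *Foxp1* cut in exon 7, with 3 libraries per line and 15 in all. Each edited line was a clone, grown from a single sorted cell, and carried its own insertion or deletion that shifts the reading frame. The cells were otherwise untreated and were cultured alike, and the replicates of a line were taken at separate passages. The libraries held no unedited clone, so that the edit and the selection of 1 cell cannot be told apart in a comparison of a clone with the parental line.

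Members of the family share short Bcl2 homology (BH) stretches and are sorted by what they do. The survival proteins Bcl2, Bcl-xL (the main product of *Bcl2l1*), Bcl-w (*Bcl2l2*) and Mcl1 hold the death proteins in check, Bax and Bak (*Bak1*) form pores in the outer mitochondrial membrane through which cytochrome c escapes, and BH3-only proteins such as Bim (*Bcl2l11*) and Bad bind the survival proteins and set the pore formers free. B cells are known to depend on these proteins throughout their development, and *BCL2* is a classical oncogene of B-cell lymphoma.

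Levels are given as CPM, the counts of a gene scaled to a common library total and for library composition, as the value in each library or as mean ± SD (n = 3). Differences are log2 fold changes from edgeR's quasi-likelihood test, called at an adjusted p under 0.05 after Benjamini-Hochberg adjustment over the 13904 genes. Total counts ranged from 26328054 to 39181530 per library. A floor of 3 counts, the smallest level this depth can show, corresponded to 0.0751 to 0.118 CPM depending on the library and covers counting error only. Normalization factors lay between 0.966 and 1.05, except in E6.2 replicate 3 (0.906) and E7.2 replicate 3 (0.826), and results that rest on these libraries are given with and without them.

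The targeted gene was measured first. *Foxp1* (ENSMUSG00000030067, chr6:98925338-99522721, reverse strand of GRCm38) was present at 102, 166 and 147 CPM in the parental libraries, 103, 99.5 and 109 CPM in those of E6.1, 109, 104 and 105 CPM in those of E6.2, 41.7, 64.2 and 64.3 CPM in those of E7.1 and 37.1, 39.6 and 52.3 CPM in those of E7.2. All E7 libraries lay below all others, and the E6 libraries overlapped the lowest parental library. The transcript was lower in E7.1 (log2 fold change -1.29, standard error 0.20, adjusted p = 0.00688) and E7.2 (log2 fold change -1.69, standard error 0.20, adjusted p = 0.00116), whereas E6.1 (adjusted p = 0.765) and E6.2 (adjusted p = 0.417) did not pass the threshold. Each of these calls was lost in 1 of 23 alternatives, E7.1 without parental replicate 2 (adjusted p = 0.0533) and E7.2 when only the E7.2 and parental libraries were fitted (0.0538). In bulk RNA, fewer cells with a transcript and less of it per cell cannot be told apart. The cells carried B-cell transcripts throughout: 9 B-cell markers summed to 3501 to 4948 CPM per library. Of 5 T-cell markers 4 (*Cd3d, Cd3e, Cd3g* and *Cd8a*) had at most 3 counts in every library, as had *Lyz2* among 5 macrophage markers and *Col1a2* and *Pdgfra* among 4 fibroblast markers. The T-cell, macrophage and fibroblast markers summed to at most 0.607, 32.4 and 0.674 CPM in any library.

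The member with the lowest p for any difference between lines was *Bcl2l1* (ENSMUSG00000007659, chr2:152780668-152831728, reverse strand). RefSeq lists 3 start sites for it on GRCm38.p6, and the counts sum the transcripts from all of them. The 70 bases before and 50 bases after each start are shown, since the level of the gene can come from any of them. Capitals mark CG pairs, the dinucleotide that is dense in CpG islands.
Start site 1 (chr2:152828440-152828559, reverse strand): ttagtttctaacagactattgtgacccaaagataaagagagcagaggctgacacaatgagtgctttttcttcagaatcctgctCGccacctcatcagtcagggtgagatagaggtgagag
Start site 2 (chr2:152830668-152830787, reverse strand): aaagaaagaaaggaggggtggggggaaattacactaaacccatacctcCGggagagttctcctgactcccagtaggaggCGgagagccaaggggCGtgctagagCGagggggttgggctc
Start site 3 (chr2:152831679-152831798, reverse strand): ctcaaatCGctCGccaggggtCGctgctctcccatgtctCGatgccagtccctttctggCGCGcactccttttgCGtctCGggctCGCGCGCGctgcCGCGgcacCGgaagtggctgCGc
The 3 windows held 1, 4 and 16 CG pairs, respectively, and the third start is the one at the outer end of the gene as the count tables list it. The deposited counts do not tell the starts apart.

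Foxp1 belongs to the forkhead factors, whose shared core word is GTAAACA. In the 12 promoters that RefSeq lists for the 8 genes (300 bases each, from 250 before to 50 after the start, GRCm38.p6) this word or its reverse complement TGTTTAC was found in 1, the first start site of *Bcl2l11*. Of all 32851 promoters of the same length 1199 (3.65%) held it. It lay 227 bases before the start on the sense strand and is shown in capitals, being the only such match among the members.
*Bcl2l11* start site 1 (chr2:128125788-128126087, forward strand): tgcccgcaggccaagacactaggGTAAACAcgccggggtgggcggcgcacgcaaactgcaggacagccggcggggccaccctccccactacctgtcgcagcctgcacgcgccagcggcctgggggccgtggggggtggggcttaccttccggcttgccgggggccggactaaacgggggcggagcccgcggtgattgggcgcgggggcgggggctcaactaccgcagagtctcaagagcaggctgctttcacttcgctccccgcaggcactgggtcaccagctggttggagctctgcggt
A match of letters is a description and says nothing of binding, and the 3 *Bcl2l1* promoters held no match in these windows.

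**Figure D1:**
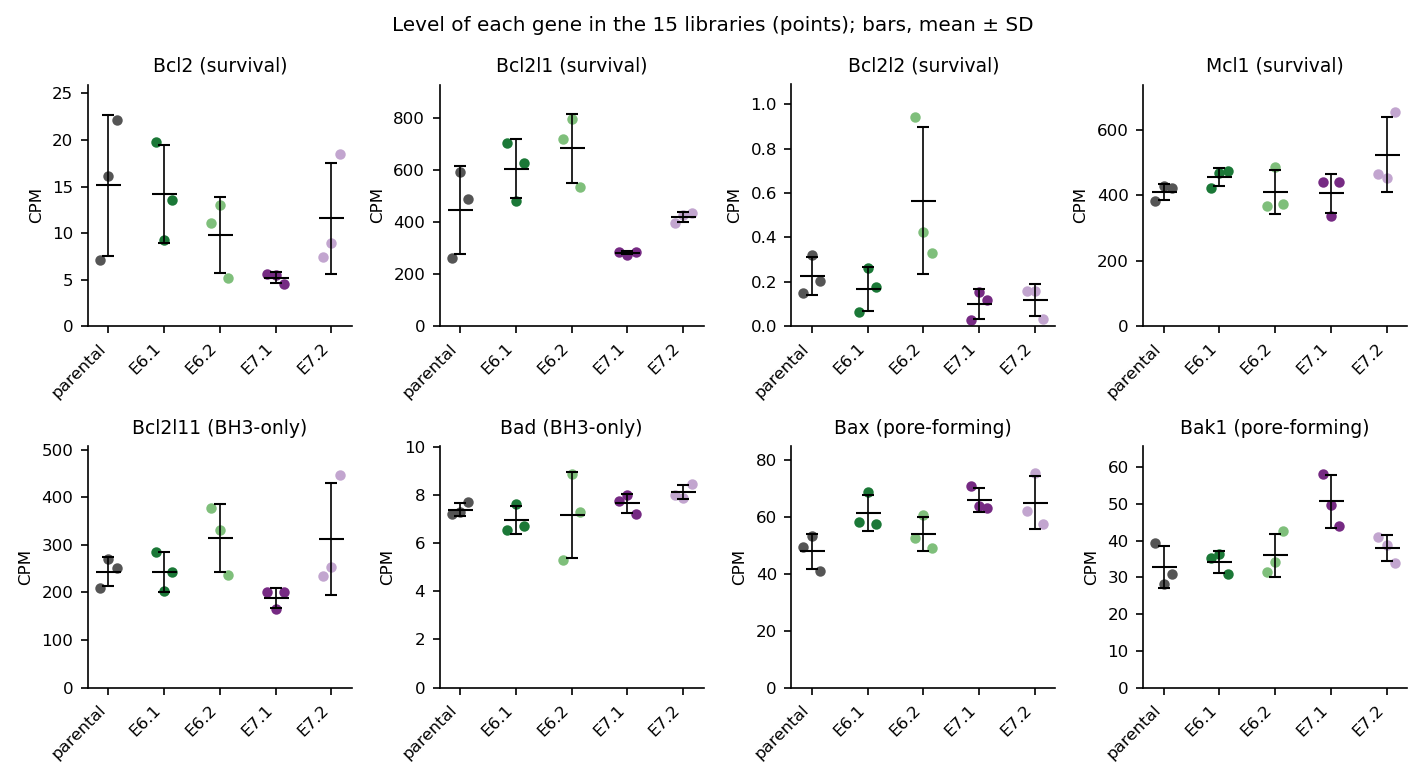
CPM of the 8 genes (vertical axes, from 0) in each of 15 libraries (points) by cell line, with the mean ± SD of 3 libraries. *Bcl2l1* lay at 274 to 433 CPM in the 6 E7 libraries and at 481 to 794 CPM in the 6 E6 libraries, whereas the parental libraries spread from 262 to 593 CPM.

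Levels of different genes can be compared only per length, here as CPM per kilobase of exon. By this measure the survival genes *Mcl1* and *Bcl2l1* had the highest means in parental cells and *Bcl2* and *Bcl2l2* the lowest. *Mcl1* stood at 118 ± 7.21 CPM per kilobase, *Bcl2l1* at 97.5 ± 36.8, *Bax* at 55.1 ± 7.21, *Bcl2l11* at 30.4 ± 3.90, *Bak1* at 13.7 ± 2.41, *Bad* at 3.68 ± 0.130, *Bcl2* at 1.65 ± 0.826 and *Bcl2l2* at 0.0505 ± 0.0194 (SD, n = 3). The libraries of *Mcl1* and *Bcl2l1* overlapped on this scale. In E7.1 *Bax* (75.8 ± 4.85 CPM per kilobase) stood above *Bcl2l1* (61.4 ± 1.31) in every library.

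Between the clones, *Bcl2l1* was lower where exon 7 had been cut than where exon 6 had been cut. *Bcl2l1* was measured at 262, 593 and 487 CPM in the parental libraries, 704, 481 and 627 CPM in those of E6.1, 718, 794 and 534 CPM in those of E6.2, 284, 274 and 286 CPM in those of E7.1 and 395, 427 and 433 CPM in those of E7.2. Every E7 library lay below every E6 library, which was also true of 1.75% of all genes tested (3.55% when genes with E7 above E6 are included), while the parental libraries overlapped both groups and parental replicate 1 was the lowest of all 15. Over the 2 clones per exon, the log2 fold change of E7 against E6 was -0.90 (standard error 0.18, adjusted p = 0.00870 by edgeR), from 643 CPM on average in the E6 clones to 349.8 CPM in the E7 clones. *Bcl2l1* was the only one of the 8 genes called here, and 1 of 8 is a share near the background, since 12.1% of all genes were called in this comparison. The call was made under all 23 alternatives, including the fits that left out each library in turn, with log2 fold changes from -0.97 to -0.84 and adjusted p values from 4.32e-05 to 0.0335. Without E6.2 replicate 3 and E7.2 replicate 3 together, a fit chosen after the data were seen, it was -0.96 (adjusted p = 0.00318). The libraries of an exon came from only 2 clones, and these p values measure the spread between libraries within clones, not between clones.

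Clone by clone, the pairs with E7.1 passed the threshold and those with E7.2 did not. *Bcl2l1* was called in E7.1 against E6.2 (log2 fold change -1.28, standard error 0.25, adjusted p = 0.00761) and in E7.1 against E6.1 (log2 fold change -1.10, standard error 0.25, adjusted p = 0.0344). The other 2 pairs across exons, E7.2 against E6.1 (log2 fold change -0.53, standard error 0.25, adjusted p = 0.431) and E7.2 against E6.2 (log2 fold change -0.71, standard error 0.25, adjusted p = 0.145), did not pass although their libraries did not overlap. Within an exon, E7.2 had more *Bcl2l1* than E7.1 in every library (log2 fold change 0.57, standard error 0.25, adjusted p = 0.348), and E6.2 and E6.1 overlapped (log2 fold change 0.18, standard error 0.25, adjusted p = 0.802). Neither pair passed the threshold. The call of E7.1 against E6.2 held under all 22 alternatives (adjusted p from 2.67e-05 to 0.0373). That of E7.1 against E6.1 held under 15 of 22 and was lost without E6.1 replicate 1 (adjusted p = 0.193), E6.1 replicate 3 (0.151), E7.1 replicate 1 (0.142), E7.1 replicate 2 (0.0862), E7.1 replicate 3 (0.103), E7.2 replicate 1 (0.0519) and E7.2 replicate 2 (0.0526). E7.2 against E6.2 was called without E6.2 replicate 3 (-0.85, adjusted p = 0.0415).

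Other transcripts also differed between the E7 and the E6 clones as groups. In the same comparison 3 of 4 plasma cell markers were higher in the E7 clones, namely *Irf4* (log2 fold change 1.02, adjusted p = 0.00472), *Prdm1* (1.33, adjusted p = 0.0190) and *Sdc1* (1.46, adjusted p = 0.0246). The 4 plasma cell markers together summed to 220 to 281 CPM in parental cells, 177 to 226 in E6.1, 166 to 380.2 in E6.2, 217 to 245 in E7.1 and 251 to 712 in E7.2. These sums include E6.2 replicate 3 and E7.2 replicate 3 and were not redone without them. The part of these transcripts in the *Bcl2l1* difference was not tested. Of the B-cell markers *Cd79a* (1.08, adjusted p = 0.00370) and *Ms4a1* (0.44, adjusted p = 0.0407) were higher in the E7 clones, and so was the fibroblast gene *Dcn* at a level near the floor.

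Set against parental cells, *Bcl2l1* was called in no clone. E7.1 stood at -0.67 on the log2 scale (adjusted p = 0.150), E7.2 at -0.10 (0.873), E6.1 at 0.43 (0.843) and E6.2 at 0.61 (0.323), all against the same 3 parental libraries. Parental replicate 1 held 262 CPM, 0.486 times the mean of the other parental libraries. Without it, *Bcl2l1* was lower in E7.1 (-0.92, adjusted p = 0.0181), and this was the only alternative that called it. Ordered by the mean level of *Bcl2l1*, the lines ran from E7.1 (281 ± 6.03 CPM) through E7.2 (418 ± 20.4), parental cells (447 ± 169) and E6.1 (604 ± 113) to E6.2 (682 ± 133), with no neighbouring pair past the threshold. In the test for any difference among the 5 lines *Bcl2l1* was the only member called (adjusted p = 0.0352), where 6.28% of all genes were. That call is a close one: it was lost under 11 of 21 alternatives, among them the fit with the replicate number as a block (adjusted p = 0.0521), and without E7.1 replicate 1 the adjusted p was 0.112.

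*Mcl1* (ENSMUSG00000038612, chr3:95658721-95663176, forward strand), which encodes a short-lived survival protein, varied less than *Bcl2l1* and *Bcl2l11*, with 1.94-fold between the lowest and the highest library against 3.03-fold and 2.72-fold. *Mcl1* was measured at 381, 427 and 422 CPM in the parental libraries, 423, 469 and 475 CPM in those of E6.1, 368, 487 and 374 CPM in those of E6.2, 440.4, 337 and 439.5 CPM in those of E7.1 and 464, 454 and 655 CPM in those of E7.2. The highest value was that of E7.2 replicate 3, and the other 14 libraries lay between 337 and 487 CPM. All 3 E7.2 libraries lay above all parental libraries, yet the difference did not pass (log2 fold change 0.35, standard error 0.18, adjusted p = 0.402). In the remaining clones the log2 fold change against parental cells was between -0.02 and 0.15, and for E7 against E6 it was 0.09 (standard error 0.12, adjusted p = 0.650).

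*Bcl2* (ENSMUSG00000057329, chr1:106538178-106714274, reverse strand), the founding member, was a minor transcript in these cells, and its libraries spanned 4.91-fold. *Bcl2* was measured at 7.11, 16.2 and 22.1 CPM in the parental libraries, 19.7, 9.26 and 13.6 CPM in those of E6.1, 11.1, 13.0 and 5.17 CPM in those of E6.2, 5.60, 5.54 and 4.50 CPM in those of E7.1 and 7.39, 8.93 and 18.4 CPM in those of E7.2. The E7.1 libraries lay below all parental libraries, whereas the other clones overlapped them. Parental replicate 1 and E6.2 replicate 3 were low within their lines, and E7.2 replicate 3 was high. For E7.1 against parental cells the log2 fold change was -1.54 (standard error 0.46), which missed the threshold in edgeR's quasi-likelihood test (adjusted p = 0.0893). It passed in 6 of 23 alternatives: DESeq2's Wald test (adjusted p = 0.0157), edgeR's likelihood ratio test (0.0284), no filter on low counts (0.0351), without parental replicate 1 (0.0252), without E6.2 replicate 3 (0.0450) and without E6.2 replicate 3 and E7.2 replicate 3 together (0.0167). Against parental cells, the log2 fold change of *Bcl2* was -0.09 for E6.1, -0.64 for E6.2 and -0.39 for E7.2, with adjusted p values of 0.995, 0.555 and 0.702. Of the exon bases of *Bcl2*, 6.1% overlap *D630008O14Rik* on the other strand, and pairs in the overlap were not counted.

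*Bcl2l2* (ENSMUSG00000089682, chr14:54883377-54888234, forward strand), the gene of Bcl-w, was close to the limit of detection. It had 5, 12 and 7 counts in the parental libraries, 2, 8 and 7 counts in those of E6.1, 24, 14 and 11 counts in those of E6.2, 1, 6 and 4 counts in those of E7.1 and 6, 6 and 1 counts in those of E7.2. The gene passed the filter on low counts only through the E6.2 libraries and parental replicate 2, so that a difference of E6.2 from other lines follows in part from the filter. In CPM all E6.2 libraries (0.331 to 0.945) lay above all parental libraries (0.151 to 0.320), and 1 library each of E6.1, E7.1 and E7.2 was at or under the floor of 3 counts. The E7.1 libraries lay below the E6.2 libraries (log2 fold change -2.44, standard error 0.70, adjusted p = 0.0316). The call was lost without the filter (adjusted p = 0.0539), without E6.1 replicate 3 (0.0536), without E6.2 replicate 1 (0.105) and without E7.1 replicate 1 (0.133), replicate 2 (0.0560) or replicate 3 (0.0867). E7 against E6 (log2 fold change -1.46, adjusted p = 0.0729) and E6.2 against parental cells (1.29, adjusted p = 0.406) did not pass. Of its exon bases 13.3% are shared with *Gm20521*, a gene on the same strand with 0 counts.

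The survival genes were also set against each other as shares of their summed CPM per kilobase of exon. Of the summed level of these 4 genes, *Bcl2l1* made up 34.6% ± 3.01 in E7.1, 37.9% ± 4.29 in E7.2, 43.8% ± 8.66 in the parental line, 49.6% ± 5.91 in E6.1 and 55.4% ± 3.75 in E6.2 (SD, n = 3), and *Mcl1* nearly all of the rest. *Bcl2* contributed from 0.323% ± 0.0623 in E7.1 to 0.737% ± 0.296 in parental cells. On average, *Bcl2l1* held the larger share in E6.2, about as much as *Mcl1* in E6.1, and the smaller share in parental cells, E7.1 and E7.2. The E6.1 and E6.2 shares (43.6% and above) exceeded every E7 share (41.5% and below). For each of the 4 pairs of an E7 with an E6 clone an exact two-sided permutation test over 3 against 3 libraries gave p = 0.1, the smallest p that this design allows. E6.2 against parental cells gave the same p by this test, and the remaining pairs of lines gave 0.2 to 0.5. The test used the same libraries in which the *Bcl2l1* difference had been seen. Without division by length the share of *Bcl2l1* was larger in every line (49.9% ± 8.69 in parental cells) and the order of the lines was the same.

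**Figure D2:**
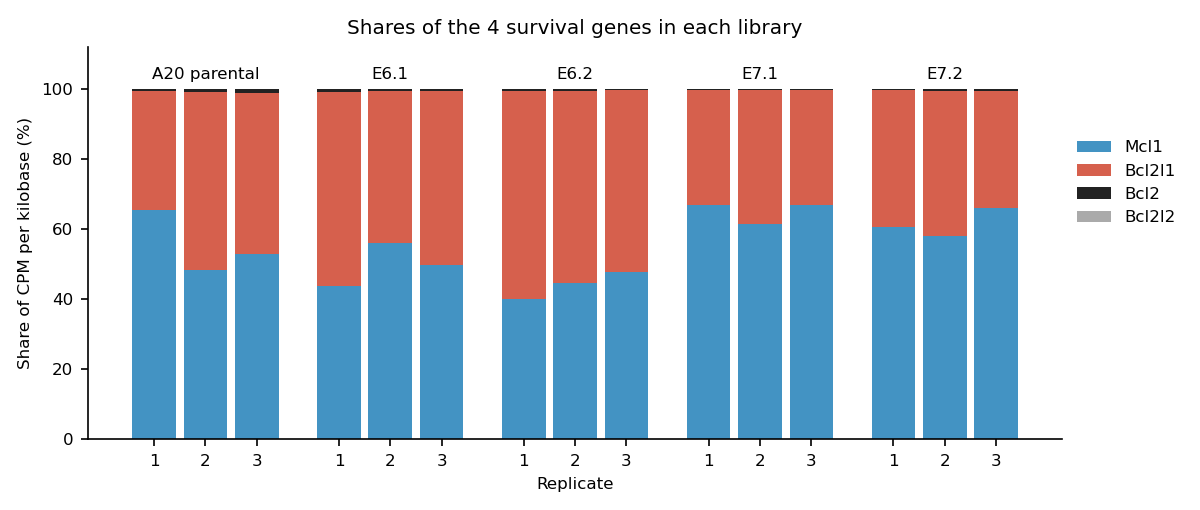
Share of each survival gene in the summed CPM per kilobase of the 4 genes (vertical axis, percent), stacked for each of the 15 libraries and grouped by line. *Bcl2l1* and *Mcl1* filled nearly the whole column in every library, and *Bcl2l1* held at least 43.6% in the E6 libraries and at most 41.5% in the E7 libraries.

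*Bcl2l11* (ENSMUSG00000027381, chr2:128126038-128162547, forward strand) encodes Bim, a BH3-only protein that binds all the survival proteins. *Bcl2l11* was measured at 209, 271 and 251 CPM in the parental libraries, 285, 202 and 243 CPM in those of E6.1, 376, 331 and 236 CPM in those of E6.2, 201, 165 and 201 CPM in those of E7.1 and 234, 254 and 447 CPM in those of E7.2. E7.1 lay below the parental libraries, E6.1 spread around them, and the highest value of all was that of E7.2 replicate 3. No clone was called against parental cells (-0.37 in E7.1, adjusted p = 0.413, to 0.37 in E6.2, adjusted p = 0.528). Between clones, E7.1 against E6.2 (log2 fold change -0.74, standard error 0.24, adjusted p = 0.0512) came just short of the threshold and was past it in 7 of 22 alternatives (adjusted p from 0.00238 to 0.166 over all 22), among them DESeq2's Wald test (0.0209), without E6.2 replicate 3 (0.0174) and without E7.2 replicate 3 (0.0148). E7 against E6 as groups gave -0.19 (adjusted p = 0.482), and without E6.2 replicate 3 and E7.2 replicate 3 together it was called (-0.42, adjusted p = 0.0130).

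*Bad* (ENSMUSG00000024959, chr19:6941861-6951898, forward strand), a BH3-only gene whose protein is held inactive by growth factor signals through phosphorylation, was low and spanned the narrowest range of the 8. *Bad* was measured at 7.2, 7.3 and 7.7 CPM in the parental libraries, 6.5, 7.6 and 6.7 CPM in those of E6.1, 5.3, 8.9 and 7.3 CPM in those of E6.2, 7.7, 8.0 and 7.2 CPM in those of E7.1 and 8.0, 7.9 and 8.5 CPM in those of E7.2, and its highest library exceeded its lowest 1.67-fold. The E7.2 libraries lay above the parental ones by a small amount (log2 fold change 0.14, standard error 0.18, adjusted p = 0.748), and the adjusted p for any difference among the 5 lines was 0.826. Of its exon bases 25.8% are shared with *Gpr137* on the other strand, where read pairs were not counted.

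*Bax* (ENSMUSG00000003873, chr7:45461695-45466898, reverse strand), a pore former that waits in the cytosol, had a higher mean in all 4 clones than in parental cells but was called in none. *Bax* was measured at 49.5, 53.1 and 40.9 CPM in the parental libraries, 58.2, 68.7 and 57.4 CPM in those of E6.1, 52.5, 60.5 and 49.0 CPM in those of E6.2, 70.7, 63.8 and 63.1 CPM in those of E7.1 and 62.0, 75.4 and 57.6 CPM in those of E7.2. The libraries of E6.1, E7.1 and E7.2 all lay above those of the parental line, and those of E6.2 overlapped them. E7.1 stood at 0.46 on the log2 scale (adjusted p = 0.0977), E7.2 at 0.44 (0.245), E6.1 at 0.36 (0.595) and E6.2 at 0.17 (0.613), all against the same 3 parental libraries. For the mean of the 4 clones against parental cells the log2 fold change was 0.36 (standard error 0.11, unadjusted p = 0.00737, adjusted p = 0.306 from edgeR). E7.1 was called with DESeq2's Wald test (0.0328), without E6.2 replicate 3 (0.0480) and without both E6.2 replicate 3 and E7.2 replicate 3 (0.0246).

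*Bak1* (ENSMUSG00000057789, chr17:27019810-27029009, reverse strand), the pore former that sits in the mitochondrial membrane, was highest in E7.1. *Bak1* was measured at 39.3, 28.2 and 31.1 CPM in the parental libraries, 35.4, 36.5 and 30.8 CPM in those of E6.1, 31.4, 34.1 and 42.7 CPM in those of E6.2, 58.3, 49.9 and 44.1 CPM in those of E7.1 and 41.1, 38.9 and 34.0 CPM in those of E7.2. The E7.1 libraries lay above all 12 others. Against parental cells, E7.1 stood at 0.63 on the log2 scale (standard error 0.16, adjusted p = 0.0675), short of the threshold, whereas the other clones had 0.06 to 0.21. In 6 of 23 alternatives E7.1 was called: DESeq2's Wald test (0.00898), edgeR's likelihood ratio test (0.0265), without parental replicate 1 (0.0170), without E6.2 replicate 3 (0.0269), without E7.2 replicate 3 (0.0422) and without E6.2 replicate 3 and E7.2 replicate 3 together (0.0122). E7 against E6 gave 0.32 (standard error 0.12, adjusted p = 0.0798), which was called in 5 of 23 alternatives, without parental replicate 1 (0.0422), E6.2 replicate 3 (0.0173) and E7.2 replicate 3 (0.0427) among them. Of its exon bases 14.8% overlap *Ggnbp1* on the other strand.

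**Figure D3:**
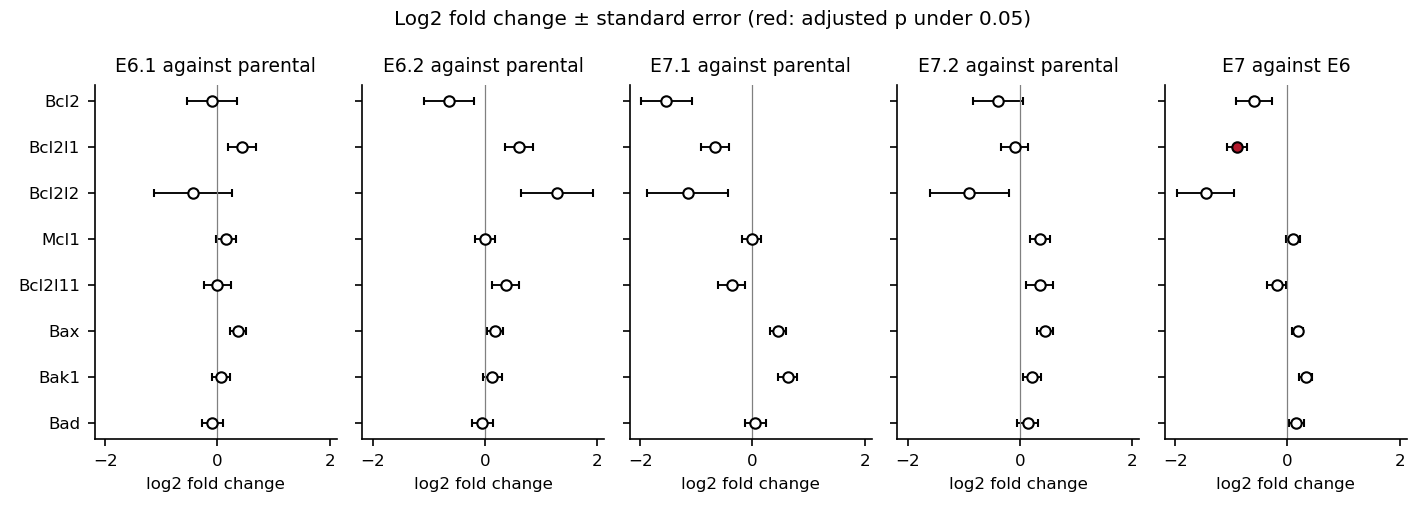
Log2 fold change (horizontal axis) with its standard error for the 8 genes in each clone against parental cells and in the E7 against the E6 clones, filled red where the adjusted p was under 0.05. *Bcl2l1* in E7 against E6 (-0.90) is the only filled point, and the widest errors belong to *Bcl2l2* and *Bcl2*.

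Counted over the family, 0 of the 8 genes were called in any single clone against parental cells by edgeR, where 1.22% of all genes were called for E7.1, 0.295% for E7.2, 0.324% for E6.1 and 1.17% for E6.2. At an unadjusted p under 0.05 the number of members was 4 for E7.1, where 20% of all genes passed, and 1 for each of the other clones, where 13.3% (E7.2), 6.71% (E6.1) and 13.1% (E6.2) passed. DESeq2's Wald test called 3 members in E7.1 (*Bcl2, Bax* and *Bak1*) and 8.34% of all genes, and the likelihood ratio test called 2 members and 5.38% of all genes. For E7.2, E6.1 and E6.2 both called 0 members, with 1.83%, 1.11% and 2.86% of all genes called by the Wald test and 1.13%, 0.899% and 2.24% by the likelihood ratio test. Members whose libraries did not overlap the parental ones numbered 4 for E7.1, 3 for E7.2, 1 for E6.1 and 1 for E6.2, against 32.0%, 24.2%, 22.5% and 14.7% of all genes for the same clones. In E7.1 these were *Bcl2* and *Bcl2l11*, which lay below, and *Bax* and *Bak1*, which lay above. In E7.2 they were *Mcl1, Bax* and *Bad*, all above, in E6.1 *Bax*, and in E6.2 *Bcl2l2*. Since *Bcl2l2* passed the filter on low counts only through E6.2 and 1 parental library, its count in E6.2 follows in part from the filter. It is no support for a difference of the members. The median log2 fold change of the 8 genes was -0.19 in E7.1, beside -0.02 over all genes, 0.17 in E7.2, beside 0.00, 0.03 in E6.1, beside 0.00, and 0.15 in E6.2, beside 0.06. For the mean of the 4 clones against parental cells 0 of 8 genes were called, where 0.503% of all genes were. At an unadjusted p under 0.05 it was 1 of 8 and 9.9% of all genes, and DESeq2's Wald test called 0 of 8 and 1.28% of all genes.

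Among the 6 pairs of clones, 3 of 48 member tests were called, namely *Bcl2l1* in E7.1 against E6.1 and in E7.1 against E6.2, and *Bcl2l2* in E7.1 against E6.2. The last of these is no support for a difference of the members, since *Bcl2l2* passed the filter on low counts mainly through E6.2, the line it is set against. Of all genes 16.9% were called in E7.1 against E6.2, 3.24% in E7.1 against E6.1, 2.24% in E7.2 against E6.2, 1.24% in E6.2 against E6.1, 0.59% in E7.2 against E7.1 and 0.352% in E7.2 against E6.1. When the lines were ordered by mean level for each gene, 0 of the 32 steps between neighbouring lines passed (lowest adjusted p = 0.175 by edgeR, 0.122 by DESeq2, which also called 0). Of these steps 2 had an unadjusted p under 0.05, *Bcl2l1* from E7.1 to E7.2 and *Bak1* from E7.2 to E7.1. The libraries of neighbours were apart in 4 steps, these 2, *Bcl2l2* from parental cells to E6.2, and *Bcl2l11* from E7.1 to E6.1. The *Bcl2l2* step follows in part from the filter. Shares over all genes were not computed for lines ordered in this way, so these counts show nothing particular to the members. Between a single clone and parental cells, 14.7% to 32.0% of all genes had libraries apart.

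The genes that followed the 2 members with the lowest p for any difference most closely were looked up over the 15 libraries. The log2 CPM of *Bcl2l1* had its highest Pearson correlations with *Dpf2* (r = 0.978), *Il9r* (r = 0.966) and *Ajuba* (r = 0.962), and that of *Bak1* with *Snrnp25* (r = 0.954), *Ppa1* (r = 0.945) and *Tuba4a* (r = 0.939). *Bcl2l1* and *Bak1* had an r of -0.74 with each other, and *Bcl2* one of 0.66 with *Bcl2l1* and -0.81 with *Bak1*. The libraries behind these values share cell lines, passages and normalization, so the values describe likeness only.

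The rest of the pathway was read from 6 lists of 47 genes, of which 41 could be tested. *Bcl2a1a, Bcl2a1c, Bcl2l10, Bik, Hrk* and *Bok* were too low. Against parental cells 0 of the 41 genes were called for E7.2, E6.1 or E6.2 by edgeR, and 1 for E7.1. At an unadjusted p under 0.05 the numbers were 4, 1, 7 and 10 in the same order, and DESeq2's Wald test called 0, 0, 2 and 4. Of all genes 13.3%, 6.71%, 13.1% and 20% had an unadjusted p under 0.05 and 1.83%, 1.11%, 2.86% and 8.34% were called by the Wald test, so that the counts in E7.1, for one, were near the background. The median log2 fold change of the 41 genes was 0.03, -0.08, -0.08 and 0.11 in these clones, against 0.00, 0.00, 0.06 and -0.02 over all genes. The gene called in E7.1 was *Pmaip1*, the gene of the BH3-only protein Noxa, which binds Mcl1. *Pmaip1* was measured at 60.7, 79.9 and 81.4 CPM in the parental libraries, 66.7, 62.9 and 72.1 CPM in those of E6.1, 36.5, 60.5 and 43.2 CPM in those of E6.2, 41.4, 46.0 and 41.0 CPM in those of E7.1 and 61.3, 60.2 and 55.6 CPM in those of E7.2. All E7.1 libraries lay below all parental libraries (log2 fold change -0.79, standard error 0.17, adjusted p = 0.0400). The call held in 13 of 23 alternatives and was lost, for example, without parental replicate 3 (adjusted p = 0.229), parental replicate 2 (0.221), E7.1 replicate 1 (0.227), replicate 2 (0.0816) and replicate 3 (0.120), and without any of the E6.1 libraries (0.0615 to 0.0767) or E7.2 replicates 1 and 2 (0.0706 and 0.0703). In E6.2 the difference was in the same direction and did not pass (-0.66, adjusted p = 0.0904). *Bbc3*, which encodes the BH3-only protein Puma, had a log2 fold change of -0.79 in E7.1 (adjusted p = 0.279).

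Among the E7 and E6 clones, 5 of the 41 genes were higher in E7 and 0 were lower, where 6.21% of all genes were called higher and 12.1% in either direction. At an unadjusted p under 0.05 it was 13 of 41 and 30.3% of all genes, and DESeq2's Wald test called 9 of 41 and 19.3% of all genes. *Bid, Casp6* and *Mtch2* are named because they are among these 5, a choice made after their values were seen. *Bid*, whose BH3-only protein is cut by caspases on the way from death receptors, was measured at 68.3, 54.8 and 55.7 CPM in the parental libraries, 57.0, 67.7 and 60.1 CPM in those of E6.1, 51.5, 49.3 and 42.3 CPM in those of E6.2, 100.2, 84.6 and 82.0 CPM in those of E7.1 and 80.6, 81.2 and 62.1 CPM in those of E7.2. The E7.1 libraries lay above all E6 libraries, and E7.2 replicate 3 lay within the E6 range (log2 fold change 0.59, standard error 0.10, adjusted p = 0.00522). *Aifm1*, which encodes a flavoprotein of the intermembrane space, was measured at 69.5, 39.8 and 46.5 CPM in the parental libraries, 40.6, 57.5 and 45.4 CPM in those of E6.1, 37.5, 40.2 and 37.5 CPM in those of E6.2, 99.2, 76.1 and 80.4 CPM in those of E7.1 and 67.9, 67.7 and 47.2 CPM in those of E7.2 (log2 fold change 0.75, standard error 0.15, adjusted p = 0.00919). Parental replicate 1 lay within the range of the E7 libraries here. *Bid* and *Aifm1* were called in all 23 alternatives. *Casp6*, an executioner caspase (log2 fold change 0.57, standard error 0.17, adjusted p = 0.0413), was called in 11 of 23, *Mtch2*, which encodes a receptor for cleaved Bid (log2 fold change 0.50, standard error 0.13, adjusted p = 0.0312), in 14, and *Akt1*, the gene of a kinase that phosphorylates Bad (log2 fold change 0.74, standard error 0.20, adjusted p = 0.0343), in 14. For *Casp6, Mtch2* and *Akt1* the E7.1 libraries lay above all E6 libraries, whereas those of E7.2 overlapped an E6 clone. *Mtch2* spanned 148 to 166 CPM in E7.2, 126 to 152 in E6.1 and 102 to 152 in E6.2. *Casp6* spanned 3.63 to 4.17 CPM in E7.2 and 3.08 to 3.70 in E6.1. *Akt1* spanned 102 to 111 CPM in E7.2 and 51.1 to 118 in E6.2. With the replicate number as a block *Casp6* was lost (adjusted p = 0.0535). The highest adjusted p over the alternatives was 0.108 for *Casp6* (without E6.1 replicate 3), 0.0941 for *Mtch2* and 0.0999 for *Akt1* (both without E6.1 replicate 1). *Bid* shares 17.7% of its exon bases with *Bcl2l13* on the other strand.

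By group, all 10 genes of the apoptosome and the caspases had a log2 fold change above 0 in E7 against E6, with a median of 0.26, beside -0.03 over all genes. Of the 10, 2 were called (*Casp6* and *Aifm1*), beside 12.1% of all genes. In E7.1 against parental cells all 10 were also above 0 (median 0.39, beside -0.02) and 0 were called by edgeR. There 2 had an unadjusted p under 0.05 and DESeq2's Wald test called 1, beside 20% and 8.34% of all genes. *Endog*, a mitochondrial nuclease that shares 35.7% of its exon bases with *Spout1*, was at 0.81 (adjusted p = 0.340). The 2 comparisons share the E7.1 libraries. Against parental cells 8 of the 10 lay below 0 in E6.2 (median -0.30, beside 0.06) and 6 in E6.1 (median -0.09, beside 0.00). In E7.2 4 lay below 0 and 6 above (median 0.15, beside 0.00). The share of all genes above 0 was not computed. Of 5 inhibitors of apoptosis edgeR called 0 in any of these comparisons (1 or 2 at an unadjusted p under 0.05 in each, and DESeq2's Wald test called 1 in E7.1 and 1 in E7 against E6), and the largest differences were *Birc3* in E7.1 (-0.53, adjusted p = 0.103) and *Birc6* in E7.2 (-0.57, adjusted p = 0.368). Of all genes 6.71% to 30.3% had an unadjusted p under 0.05 in these comparisons. The Wald test called 8.34% of all genes in E7.1 and 19.3% in E7 against E6. Among 16 partners and regulators, of which *Mtch2* and *Akt1* were called, *Pim2*, a survival kinase, ranged from 23.3 to 266 CPM, with the highest values in E7.2 replicate 3 and E6.2 replicate 3 and no call (E7.1 against parental cells -1.16, adjusted p = 0.355). Of the remaining survival genes only *Bcl2a1b* and *Bcl2a1d* were measurable. They are near copies of each other whose reads may be split or dropped, and *Bcl2a1d* in E6.2, at 0.551, 0.665 and 0 CPM against 6.14, 3.07 and 3.00 CPM in parental cells, was not called by edgeR's quasi-likelihood test (adjusted p = 0.0776). The value of 0 is that of E6.2 replicate 3. In E6.2 against parental cells 2 of these 2 genes had an unadjusted p under 0.05, beside 13.1% of all genes. DESeq2's Wald test and the likelihood ratio test each called 1 of the 2, beside 2.86% and 2.24% of all genes. Among the 4 tested genes of the Bcl2-like group the largest log2 fold changes were those of *Bcl2l14* in E7.1 (-0.34) and *Bcl2l15* in E6.1 (0.28), and neither passed (adjusted p = 0.434 and 0.947).

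**Figure D4:**
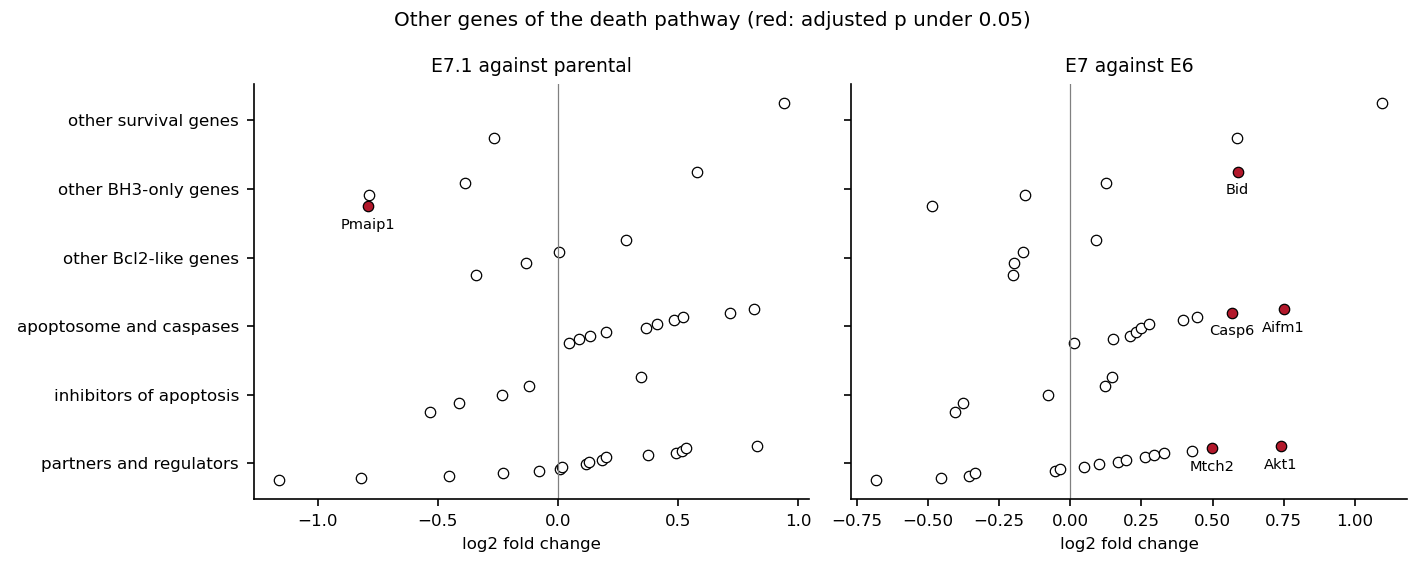
Log2 fold changes (horizontal axes, whose ranges differ) of the 41 tested genes of the pathway outside the 8 members, 1 point per gene and 1 row per list, in E7.1 against parental cells and in E7 against E6, red and named where the adjusted p was under 0.05. *Pmaip1* is the only red point on the left, and the 5 red points on the right all lie above 0.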

How the data were processed

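RNA of 15 libraries (A20 parental cells and 4 *Foxp1* CRISPR clones, 3 libraries each) was sequenced on an Illumina HiSeq4000. The deposited files hold raw counts of read pairs per gene, which the authors made with featureCounts 1.5.0 per the file headers, on paired reads without regard to strand. HISAT, SAMtools and mm10 are named in the submitters' processing notes, and coordinates are those of GRCm38. Of 41480 features 92 were spike-ins with 0 counts and were left out. Read pairs that overlapped more than 1 gene were not counted, and most overlapping genes are pointed out beside their values. Not mentioned there are overlaps of *Bcl2a1b* with *Gm29094* (49.1% of its exon bases) and of *Foxp1* with *Gm20696* (5.1%). The same holds for *Birc6* with *Gm26749* (2.1%) and *Pdgfra* with *Mir7025* (0.4%).

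The analysis used edgeR 4.0.16 under R 4.3.3. After filterByExpr (minimum count 10), counts were scaled by trimmed mean of M values and tested with glmQLFit and glmQLFTest in 1 fit over the 15 libraries, with the 5 lines as factor and Benjamini-Hochberg adjustment over 13904 genes. The steps were tested on simulated data. Levels are CPM from the same scaling, divided by the exon length in the files where genes are compared with each other. Total counts per library had a median of 35586010. No 2 libraries of the same line were duplicates, and pairs across lines were not compared in this way. Groups came from the sample labels, and the replicates, collected at separate passages, give the spread between passages.

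The 8 genes, the lists and the tests were chosen with earlier results of these data known. Besides the 8 genes and *Foxp1*, a listed gene is named where it was called in a clone against parental cells or was 1 of the 2 with the largest log2 fold change in its list, and for the 2 members with the smallest p among lines the 3 genes with the highest correlation are named. Alternatives were DESeq2 1.42.0 (size factors, and its Wald test), no filter, edgeR's likelihood ratio test, its newer quasi-likelihood method, the replicate number as a block, only the libraries compared, each library left out, and, chosen after seeing the data, both libraries with the lowest normalization factors left out. The deviations of libraries with the same replicate number from their line means had a mean correlation of 0.053 over 30 pairs, from -0.12 to 0.43. Of the 10 pairs of lines, only E6.2 and E7.2 had all 3 correlations over 0.1 (0.17 to 0.43), and replicate 3 of both had the lowest normalization factors. The main fit took no replicate numbers as pairs, and the alternative with the block applied them to all lines and comparisons. Promoter sequences are from RefSeq (GRCm38.p6). 1 marker gene is not reported here. The single-value comparisons of shares used an exact permutation test.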

Additional observations from a re-analysis of the deposited data

Results flagged for a closer look

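These results stand out because a tested difference between groups of edited clones passed the adjusted threshold, and all were given above. *Bcl2l1* differed by -0.90 on the log2 scale between the E7 and the E6 clones, by -1.10 between E7.1 and E6.1 and by -1.28 between E7.1 and E6.2. *Bcl2l2* differed by -2.44 between E7.1 and E6.2 at 1 to 24 counts per library. It passed the filter on low counts only through the E6.2 libraries and 1 parental library, and was not called without the filter (adjusted p = 0.0539), so its call carries no weight. The targeted gene *Foxp1* differed by -1.09 between the E7 and the E6 clones, so the 2 kinds of clone also differed in the transcript that had been cut. Among the other genes of the pathway, the E7 clones as a group were higher than the E6 clones for *Aifm1* (0.75), *Akt1* (0.74), *Bid* (0.59), *Casp6* (0.57) and *Mtch2* (0.50). For each of these genes the E7.2 libraries overlapped those of an E6 clone. Each kind of clone was represented by 2 clones, and 12.1% of all genes tested differed between them.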

How the results depend on the processing

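Counts of members called moved with the setting. For E7.1 against parental cells, with 0 called, the number was 1 without the filter on low counts, 3 with DESeq2's Wald test, 2 with the likelihood ratio test, 3 without both libraries of lowest normalization factor, and 0 to 3 when single libraries were left out. For E7 against E6, with 1 called, it was 2 with the Wald test, 2 with the likelihood ratio test, 4 without both libraries, and 1 to 3 when single libraries were left out. Over the pairs of clones, with 3 called, it was 7, 8 and 8, and 1 to 9. For any difference among the 5 lines, with 1 called, it was 3 with the likelihood ratio test, 5 without both libraries, and 0 to 2 when single libraries were left out. With the replicate number as a block it was 0, since *Bcl2l1* then had an adjusted p of 0.0521. The block changed no other call of the 8 genes, also not in E7.2 against E6.2, where same-numbered libraries deviated together (for *Bcl2l1* the adjusted p was 0.145 without and 0.186 with the block). The counts for E6.1, E6.2, E7.2 and the mean of the clones stayed at 0 under all alternatives run. The cause of these shifts was not tested.

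Member log2 fold changes were followed for each clone against parental cells, E7 against E6, E7.1 against E6.1 and E7.1 against E6.2. The other pairs of clones and the mean of the clones were left out of this count. Of 1269 such values under alternatives, 1172 kept their direction and their side of the threshold, 49 passed it newly, 13 no longer passed it and 35 changed sign. None of those that changed sign had been called. *Bcl2l11* in E6.1 against parental cells was 0.0030 without the filter and 0.0024 without both libraries. *Mcl1* in E6.2 against parental cells was 0.0147 with DESeq2's size factors, 0.0147 with the Wald test, 0.0016 with the block, 0.0075 with only the libraries compared and 0.056 without both libraries. Without both libraries, *Bak1* in E6.2 was -0.0078, *Mcl1* in E7.1 was 0.0072 and *Mcl1* in E7 against E6 was -0.0048. *Mcl1* in E7.1 against E6.2 was 0.0137 without the filter. When single libraries were left out, the ranges were -0.44 to 0.29 for *Bcl2* in E6.1, -0.13 to 0.12 for *Bcl2l11* in E6.1, -0.038 to 0.21 for *Bak1* in E6.1, -0.15 to 0.077 for *Mcl1* in E6.2, -0.23 to 0.12 for *Bad* in E6.2, -0.077 to 0.10 for *Mcl1* in E7.1 and -0.34 to 0.16 for *Bcl2l1* in E7.2, each against parental cells. Between E7.1 and E6.2 they were -0.076 to 0.14 for *Mcl1* and -0.049 to 0.28 for *Bad*.

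A fit of only the libraries compared was not run for pairs of clones, the mean of the clones or any difference among lines, and the Wald test was not run for the last. Depth limited *Bcl2l2*, whose libraries held 1 to 24 counts. Clones were not replicated within an edit, and no unedited clone was sequenced in these libraries.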
